A study of Mus musculus with 8 samples.

Results

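ATP-binding cassette (ABC) transporters are membrane proteins that burn ATP to move lipids, drugs, conjugates, peptides, and metals across membranes, and mammals sort them by sequence into subfamilies A to G. In the kidney they are best known for efflux at the tubular cell surface, where they secrete drugs, urate, and organic anions into the urine, whereas subfamily D works in peroxisomes and lysosomes and subfamilies E and F lack membrane spans and act on ribosomes. The family was taken here as all genes whose names follow the pattern *Abca* to *Abcg* plus a number, with 10 or more counts in at least 4 libraries. This rule kept 39 of the 50 genes with such names, among 55367 listed genes, and used no difference between the genotypes. The 39 members fell into subfamily A (12 genes), B (8), C (9), D (3), E (1), F (3), and G (3).

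RNA-Seq was performed on whole kidneys of 4 Maf conditional KO mice and 4 Maf flox/flox mice, all of the C57BL/6J strain and given as 8 weeks of age after birth. The Maf conditional KO mice (c-MafΔTAM in the study) carried floxed *c-Maf* with the tamoxifen-inducible CAG-Cre-ERTM transgene, which is expressed in nearly all tissues, so the deletion was not limited to the kidney or to tubules. The Maf flox/flox mice (c-Maf fl/fl) carried the same floxed alleles without Cre and also received tamoxifen (TAM). The comparison asks how loss of the transcription factor c-Maf 10 days after TAM changes gene expression in the adult kidney. In whole tissue, fewer cells of a type and less RNA per cell cannot be told apart.

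The totals ranged from 16649129 to 22990257 counts per mouse, and the members took from 0.236% to 0.375% of them. *Maf* was lower in every Maf conditional KO mouse, at 20.8 ± 13.1 against 344.7 ± 30.8 CPM (counts scaled to a common library size, as edgeR gives them; mean ± SD, n = 4 each), with a log2 fold change of -4.05 ± 0.51 (SE; adjusted P = 0.0115 in edgeR's quasi-likelihood test). The mice differed in a further way that the labels do not describe. *Xist*, the RNA that coats the inactive X chromosome, had 17618 to 22387 counts in 5 mice (Maf conditional KO mice 2 to 4, Maf flox/flox mice 1 and 2) and 2 to 22 counts in the other 3 (Maf conditional KO mouse 1, Maf flox/flox mice 3 and 4), in which the Y-linked genes were counted instead. Mitochondrial genes took from 17.1% to 32.3% of the counts, with the highest share in Maf conditional KO mouse 1. The label for RNA extraction names the liver although the source is whole kidney, and kidney markers were abundant, whereas albumin (*Alb*) was between 0.66 and 8.85 CPM. *Alb* does not speak for all listed hepatocyte markers. Their sum was 146.7 to 1402 CPM in Maf conditional KO and 61.5 to 617.5 CPM in Maf flox/flox mice, and its source was not tested.

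Levels are given as CPM scaled by edgeR's TMM method. Where levels of different members are compared, they are CPM per kilobase of exon (CPM/kb), the mean over all 8 mice. Log2 fold changes are Maf conditional KO over Maf flox/flox, and a gene was called when its adjusted P over all 20149 tested genes was under 0.05. All 39 members were among the tested genes.

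The adult kidney expressed members of all 7 subfamilies, and a few of them held a large part of the family's level. The order given here is that of the mean over all 8 mice. *Abca3*, known from lung as the transporter that loads phospholipid into surfactant bodies, was the highest at 50.0 CPM/kb. It was followed by *Abcc2* (Mrp2), an efflux pump for glucuronide and glutathione conjugates, at 40.3 CPM/kb, and by *Abcd3* (Pmp70), a major protein of the peroxisome membrane, at 39.1 CPM/kb. *Abca13*, the member with the longest exonic sequence (19737 bases), had 36.1 CPM/kb, and *Abcg2* (Bcrp), an apical pump for drugs and urate, had 24.8 CPM/kb. These 5 genes took from 44.2% to 55.9% of the summed family level in a mouse. *Abcc4* (18.8 CPM/kb), *Abcc3* (17.8), *Abca2* (15.9), *Abcf2* (15.3), and *Abcf1* (15.3) completed the 10 highest. The order was not the same within each genotype, since *Abcc3* had a mean of 24.0 CPM/kb in Maf conditional KO and 11.6 CPM/kb in Maf flox/flox mice, and *Abcg2* had 21.6 CPM/kb in Maf conditional KO mice. In subfamily B the highest was the mitochondrial *Abcb8* at 10.9 CPM/kb, and the only E member, the ribosome recycling factor *Abce1*, had 9.11 CPM/kb. At the lower end were *Abcg3* (0.155), *Abcb4* (0.0801), the phosphatidylcholine transporter of bile, and *Abcc8* (0.0732), the sulfonylurea receptor of pancreatic beta cells. Subfamily A took the largest share of the summed level in each mouse (31.9% to 35.9%), and subfamily C varied most, from 19.8% to 28.8%.

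**Figure D1:**
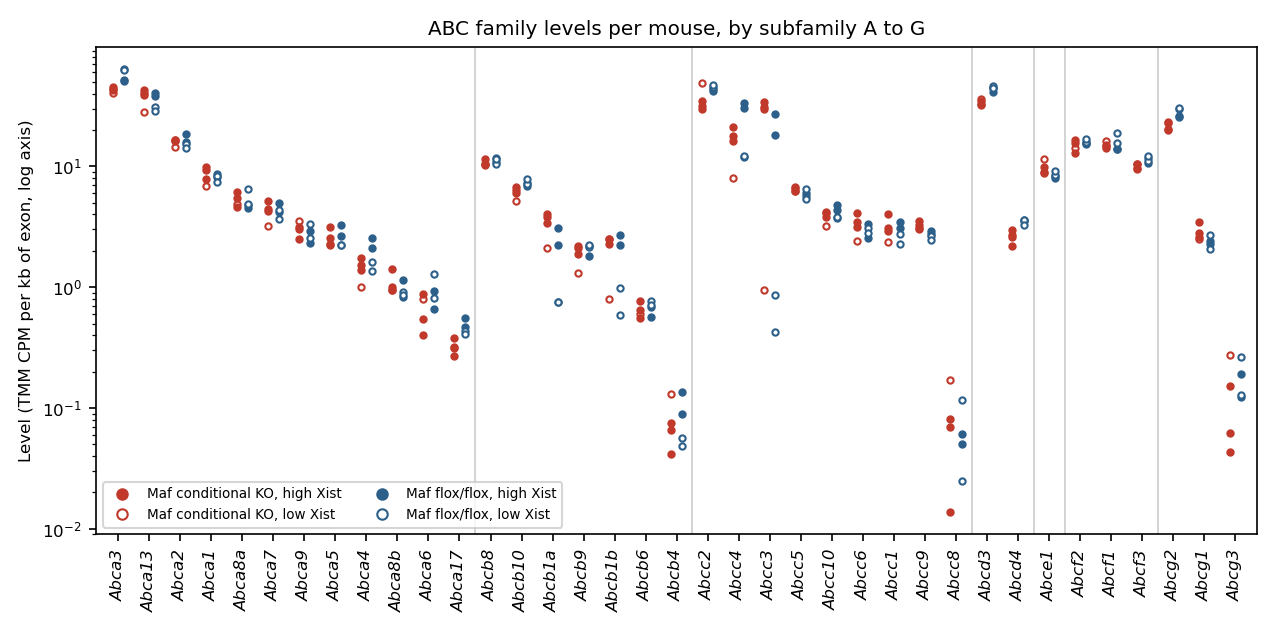
Levels of 37 of the 39 members in each mouse as CPM per kilobase of exon on a log axis, ordered by level within subfamilies A to G, with Maf conditional KO mice in red and Maf flox/flox mice in blue. Filled points are the 5 mice with high *Xist* and open points the 3 with low *Xist*. *Abca3* has the highest mean (50.0 CPM/kb), and *Abcc3* shows the widest spread, with the 3 open points far below the filled ones.

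The count rule set the lower edge of the family. *Abcg3* was just inside, with 10 or more counts in 4 libraries, and *Abcd2* was just outside, with 3. The 11 genes left out were *Abca12*, *Abca14*, *Abca15*, *Abca16*, *Abcb5*, *Abcb11*, *Abcc12*, *Abcd2*, *Abcg4*, *Abcg5*, and *Abcg8*, and 0 of them passed the filter for testing. *Abca15*, *Abcb5*, and *Abcb11*, the bile salt export pump of the liver, had 0 counts in all 8 mice.

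Between the genotypes, the median of the family moved little, while several counts of lower members lay above the share over all tested genes. In edgeR's quasi-likelihood test 1 of 39 members was called lower (background: 1.58% of all tested genes) and 0 were called higher (background: 0.586%). At an unadjusted P under 0.05, 8 members were lower, or 20.5% (background: 7.44%), and 1 was higher, or 2.56% (background: 6.58%). DESeq2 on the same counts called 4 of the 39 members lower (background: 2.81%) and 0 higher (background: 1.58%). The log2 fold change was below 0 in 22 members and above 0 in 17, with a median of -0.04 against 0.00 over all tested genes. All 4 Maf conditional KO mice lay below all 4 Maf flox/flox mice in 8 members, or 20.5% (background: 5.62%), and above them in 1, or 2.56% (background: 4.17%). The lower members included *Abca3*, *Abca17*, *Abcb10*, *Abcd3*, *Abcd4*, *Abcf3*, and *Abcg2*, and the higher member was *Abcc9*. The members without overlap were the same 9 as those with an unadjusted P under 0.05.

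**Figure D2:**
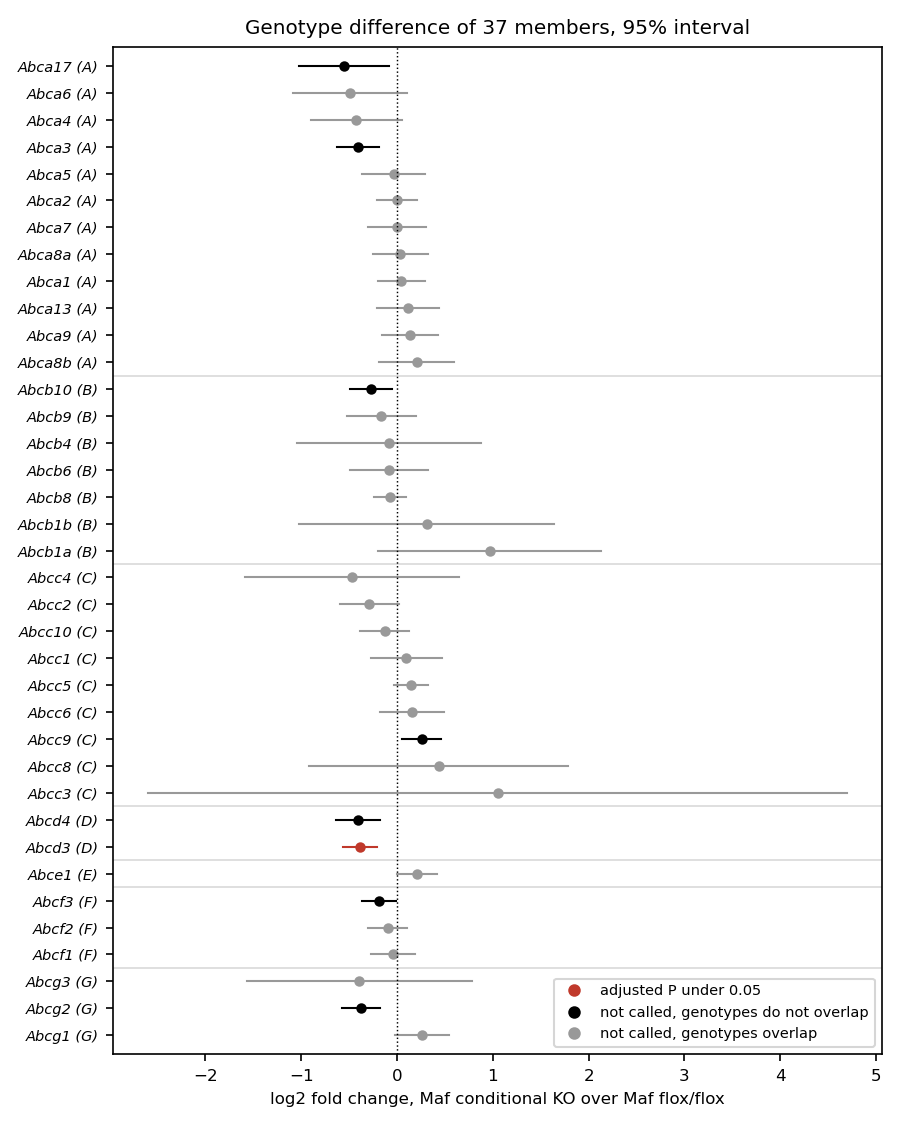
Log2 fold change of 37 of the 39 members, Maf conditional KO over Maf flox/flox, with its 95% interval, grouped by subfamily. The called member *Abcd3* (red) is at -0.39, the black points are the other 7 plotted members whose genotypes do not overlap, and the intervals of *Abcc3*, *Abcb1a*, *Abcb1b*, and *Abcc4* are wide.

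Subfamily D, the peroxisomal and lysosomal half-transporters, held the called member, *Abcd3*. *Abcd3*, whose product imports branched-chain and dicarboxylic acyl-CoA and bile acid precursors into peroxisomes, had 237.2, 216.1, 212.9, and 226.8 CPM in Maf conditional KO mice 1 to 4 and 293.0, 273.9, 306.6, and 293.3 CPM in Maf flox/flox mice 1 to 4. The groups did not overlap, and the means were 223.3 ± 11.02 and 291.7 ± 13.5 CPM. The log2 fold change was -0.39 ± 0.081 (SE), a decrease to 0.765 of the control level (adjusted P = 0.0307 in edgeR's quasi-likelihood test). The difference was similar with each mouse left out in turn (-0.41 to -0.36), but the adjusted P stayed under 0.05 only without Maf conditional KO mouse 1 (0.0209). Without each of the other 7 mice it ranged from 0.0525 to 0.121. With upper-quartile scaling the adjusted P was 0.0562, with quantile normalization and limma 0.0773, and with edgeR's exact test joined to a looser filter (a summed count of 5 or more), so that test and filter both changed, 0.150.

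*Abcd3* lies on the minus strand of chromosome 3 (chr3:121758774-121815302, GRCm38). The 250 bases before its start are shown because it is the only called member. They come from RefSeq (GRCm38.p6, chr3:121815303-121815552, minus strand) and hold 34 CpG dinucleotides, in capitals:
Abcd3: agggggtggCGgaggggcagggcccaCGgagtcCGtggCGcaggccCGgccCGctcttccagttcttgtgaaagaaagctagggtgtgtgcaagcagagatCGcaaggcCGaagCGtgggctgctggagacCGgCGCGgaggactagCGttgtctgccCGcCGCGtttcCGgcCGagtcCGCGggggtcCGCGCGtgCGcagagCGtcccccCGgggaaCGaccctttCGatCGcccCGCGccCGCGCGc

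*Abcd4*, which takes part in the release of cobalamin (vitamin B12) from lysosomes, had 21.7, 20.9, 17.4, and 23.9 CPM in Maf conditional KO mice and 28.6, 28.0, 28.6, and 26.0 CPM in Maf flox/flox mice. The highest Maf conditional KO mouse was below the lowest control, with a log2 fold change of -0.41 ± 0.11 (SE), but the gene was not called (adjusted P = 0.0791 in edgeR's quasi-likelihood test, 0.0252 in DESeq2). Subfamily D took 10.2% to 12.7% of the summed family level in Maf conditional KO mice and 12.04% to 14.4% in Maf flox/flox mice, so that the shares overlapped.

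Lists of genes that act with the members were counted in the same fits, and in one with the *Xist* level as a covariate. For these lists and for the cell type markers, the background is the share of all tested genes in each fit, which was 0.586% higher and 1.58% lower by edgeR's quasi-likelihood test, 6.58% and 7.44% at an unadjusted P under 0.05, 1.58% and 2.81% by DESeq2, and 2.59% and 4.23% with the *Xist* covariate. Among 8 listed partners of the peroxisomal members, 1 was called higher and 1 lower (1 and 2 at an unadjusted P under 0.05, 1 and 1 by DESeq2, and 1 and 2 with the *Xist* covariate). *Acox2*, the oxidase for branched-chain and bile acid precursors, rose by a log2 fold change of 0.64 ± 0.14, and *Acaa1a*, a peroxisomal thiolase, fell by 0.57 ± 0.11 on the log2 scale (SE; adjusted P = 0.0387 and 0.0232 in edgeR's quasi-likelihood test). Among 8 listed cobalamin genes only *Tcn2*, the plasma carrier of cobalamin, was called (0 higher and 2 lower at an unadjusted P under 0.05, 0 and 1 by DESeq2, and 0 and 1 with the *Xist* covariate). It was at 596.4, 613.7, 605.7, and 524.2 CPM in Maf conditional KO mice and at 1025 to 1333 CPM in Maf flox/flox mice, a fall of 1.03 ± 0.11 on the log2 scale (SE; adjusted P = 0.000310 in edgeR's quasi-likelihood test).

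In subfamily A, the lower members were a neighboring pair. *Abca3* had 377.4, 426.0, 409.1, and 401.6 CPM in Maf conditional KO mice and 481.0, 473.5, 596.6, and 587.1 CPM in Maf flox/flox mice. The groups did not overlap, and the log2 fold change was -0.41 ± 0.10 (SE), not called at an adjusted P of 0.0691 (edgeR's quasi-likelihood test; 0.00868 in DESeq2). In the 5 mice with high *Xist* alone it was -0.21 ± 0.080 (SE; adjusted P = 0.204 in edgeR's quasi-likelihood test), and the low-*Xist* Maf flox/flox mice 3 and 4 had the highest values of the 8. *Abca17*, a low member at 0.394 CPM/kb, had 1.78, 2.11, 1.497, and 1.73 CPM against 3.09, 2.62, 2.44, and 2.29 CPM. Its groups did not overlap either, but they were separated by less than 0.2 CPM, and its adjusted P was 0.270 in edgeR's quasi-likelihood test. Of the 36-base stretches of *Abca17*, the length of a read, 3.59% also occur in other genes, most often *Abca3*. *Abca17* had 27 to 63 counts per mouse and *Abca3* had 7377 to 11757, so some *Abca17* counts may come from *Abca3*. Whether *Abca17* was lower apart from such reads was not tested.

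*Abca17* (chr17:24264259-24351068, minus strand) and *Abca3* (chr17:24351950-24410201, plus strand) are transcribed away from each other, and 881 bases separate their starts. The bases before each start are shown because these neighbors were both lower in every Maf conditional KO mouse. They are RefSeq sequence of GRCm38.p6 at chr17:24351069-24351309 (minus strand) and chr17:24351773-24351949 (plus strand), with CpG dinucleotides in capitals, 16 before *Abca17* and 15 before *Abca3*:
Abca17: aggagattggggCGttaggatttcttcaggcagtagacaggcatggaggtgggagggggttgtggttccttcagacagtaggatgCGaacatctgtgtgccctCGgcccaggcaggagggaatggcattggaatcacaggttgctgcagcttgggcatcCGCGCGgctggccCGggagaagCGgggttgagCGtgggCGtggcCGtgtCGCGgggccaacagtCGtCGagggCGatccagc
Abca3: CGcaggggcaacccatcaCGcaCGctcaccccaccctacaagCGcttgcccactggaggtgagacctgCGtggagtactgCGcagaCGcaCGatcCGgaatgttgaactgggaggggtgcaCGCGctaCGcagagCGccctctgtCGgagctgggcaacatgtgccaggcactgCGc

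A share of 9.75% of the exonic bases of *Abca3* also belonged to *D330041H03Rik*, and reads there were not counted for either gene. CpG was present in 94.6% of 27025 RefSeq promoter windows (300 bases, 250 before to 50 after a start), so its presence does not set these members apart. A further neighbor, *Abca4*, lies 229140 bases from *Abcd3*. It is best known from the retina, where it clears retinal adducts, and it had 12.01, 21.0, 16.8, and 18.3 CPM in Maf conditional KO mice and 30.5, 25.2, 19.3, and 16.3 CPM in Maf flox/flox mice. In the fit of all mice its log2 fold change was -0.43 ± 0.21 (SE; adjusted P = 0.420 in edgeR's quasi-likelihood test), and its groups overlapped.

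The other A members did not differ beyond the spread between mice. *Abca13* had 557.5, 843.5, 801.8, and 762.6 CPM in Maf conditional KO mice and 747.0, 804.6, 613.8, and 566.8 CPM in Maf flox/flox mice, with a log2 fold change of 0.12 ± 0.15 (SE). *Abca2*, a lysosomal lipid transporter, was at 119.5 to 138.9 CPM against 119.0 to 152.9 CPM, and *Abca1*, which hands cholesterol to apolipoprotein A-I, at 71.5 to 101.6 CPM against 77.3 to 90.01 CPM. The cluster *Abca8b*, *Abca8a*, *Abca9*, *Abca6*, and *Abca5* on chromosome 11 also gave overlapping values in each gene, with log2 fold changes from -0.49 (*Abca6*) to 0.20 (*Abca8b*). For the sterol pathway that drives *Abca1* and *Abcg1*, 14 listed genes of the liver X receptor pathway were tested, of which 1 was called higher and 0 lower by edgeR's quasi-likelihood test (background: 0.586% and 1.58%). There were 2 and 2 at an unadjusted P under 0.05 (background: 6.58% and 7.44%), 2 and 0 by DESeq2 (background: 1.58% and 2.81%), and 2 and 0 with the *Xist* covariate (background: 2.59% and 4.23%). The called gene was *Mylip*, which marks the LDL receptor for degradation, at 0.56 ± 0.13 (SE) on the log2 scale (adjusted P = 0.0449 in edgeR's quasi-likelihood test). *Abcg1* itself had 18.2, 25.4, 19.0, and 20.4 CPM against 17.6, 16.5, 19.8, and 15.1 CPM, which overlapped.

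**Figure D3:**
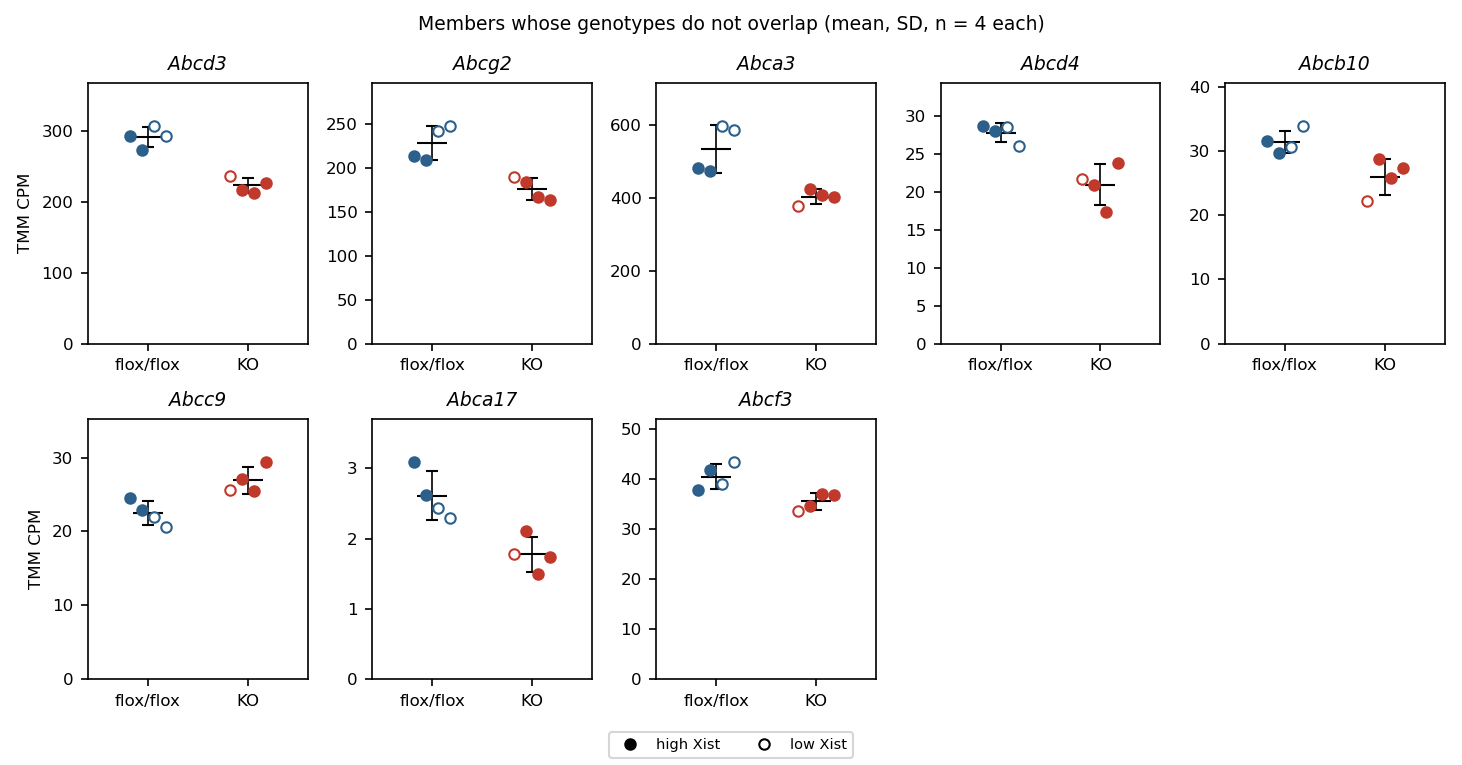
CPM per mouse of 8 members whose genotypes do not overlap, in order of P, with the mean and SD of each genotype (n = 4 each), filled points for high *Xist* and open points for low *Xist*. *Abcd3* is at 212.9 to 237.2 CPM in Maf conditional KO and 273.9 to 306.6 CPM in Maf flox/flox mice, and *Abcc9* is the only one of the 8 that is higher in Maf conditional KO mice.

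Among the drug and conjugate efflux members, *Abcg2* was lower without overlap. It had 189.5, 184.6, 167.4, and 163.2 CPM in Maf conditional KO mice and 213.9, 209.4, 242.4, and 247.6 CPM in Maf flox/flox mice. The groups did not overlap, the log2 fold change was -0.37 ± 0.092 (SE), and the adjusted P was 0.0642 in edgeR's quasi-likelihood test and 0.00781 in DESeq2. *Abcc2*, which shares the apical membrane with *Abcg2*, had 416.9, 298.7, 267.2, and 256.0 CPM in Maf conditional KO mice and 355.6, 370.3, 387.9, and 399.4 CPM in Maf flox/flox mice. Maf conditional KO mouse 1 was above every control and the other 3 were below every control, so the groups overlapped (log2 fold change -0.29 ± 0.14, SE). Without that mouse the log2 fold change was -0.46 (adjusted P = 0.0183 in edgeR's quasi-likelihood test).

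*Abcc3* (Mrp3), a basolateral pump for conjugates, separated the mice by their *Xist* level. It had 5.44, 177.2, 194.7, and 170.5 CPM in Maf conditional KO mice and 103.6, 153.2, 4.87, and 2.40 CPM in Maf flox/flox mice. The 3 low-*Xist* mice lay far below the other 5 in both genotypes, and the level in high-*Xist* over low-*Xist* mice was 35.3-fold in Maf flox/flox and 33.2-fold in Maf conditional KO mice, the latter against 1 low-*Xist* mouse. The log2 fold change between genotypes was 1.05 ± 1.501 (SE), which the spread between mice does not allow to be told from 0.

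The P-glycoprotein pair *Abcb1a* and *Abcb1b*, broad drug efflux pumps, followed a like pattern. *Abcb1a* had 11.7, 22.1, 20.9, and 18.7 CPM in Maf conditional KO mice and 12.2, 16.7, 4.16, and 4.16 CPM in Maf flox/flox mice. *Abcb1b* had 6.36, 19.9, 20.02, and 18.2 CPM against 17.8, 21.4, 4.72, and 7.86 CPM. In each gene the 3 low-*Xist* mice were the lowest of the 8, and within each *Xist* level the Maf conditional KO mice were above the Maf flox/flox mice for *Abcb1a* only. Of the 36-base stretches of *Abcb1a*, the length of a read, 26.4% also occur in other genes, most often *Abcb1b*. For *Abcb1b* the share was 16.0%, most often with *Abcb1a*, so the counts of the pair may be split between them. A share of 10.1% of the exonic bases of *Abcb1a* also overlapped *Gm42686*.

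*Abcc4* (Mrp4), an apical pump for urate and cyclic nucleotides, carried both patterns. It had 50.6, 114.4, 104.1, and 134.7 CPM in Maf conditional KO mice and 212.5, 192.4, 75.7, and 78.2 CPM in Maf flox/flox mice. Among the 5 high-*Xist* mice the 3 Maf conditional KO mice were all below both controls, and among the 3 low-*Xist* mice the Maf conditional KO mouse was again the lowest. Over all 8 mice the groups overlapped, and the log2 fold change was -0.47 ± 0.47 (SE; adjusted P = 0.729 in edgeR's quasi-likelihood test).

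**Figure D4:**
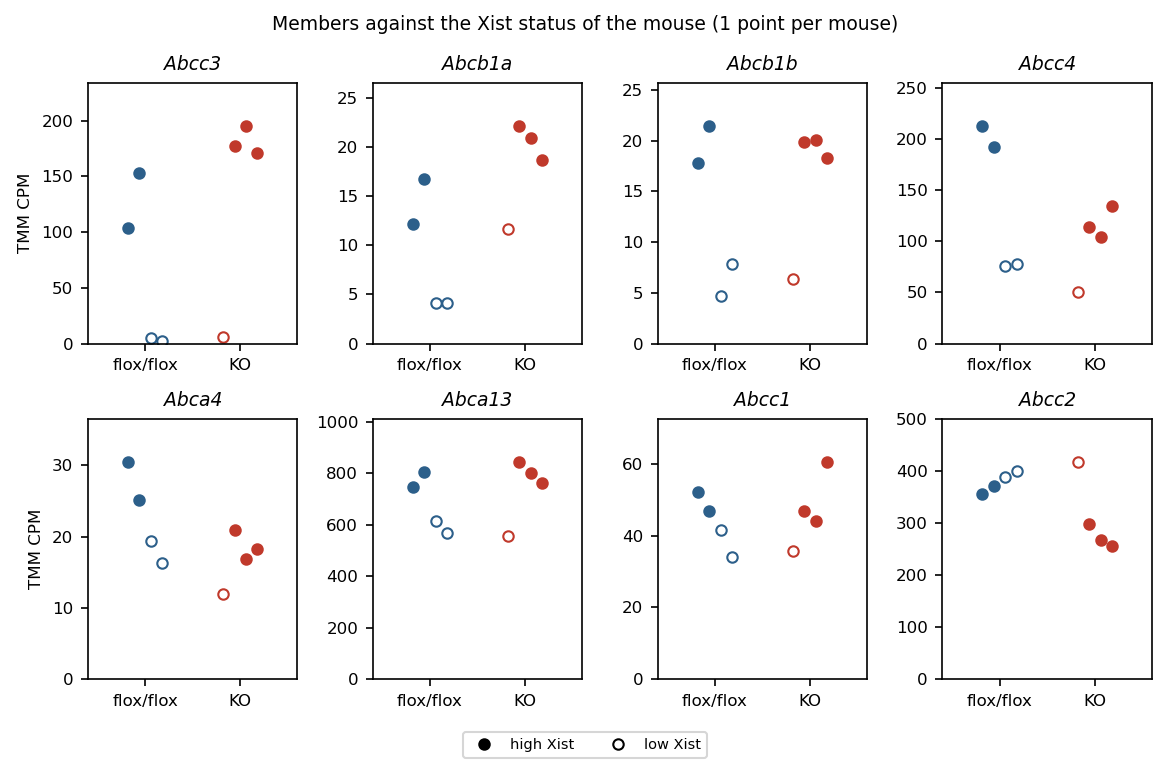
CPM per mouse of 8 members, with filled points for the 5 high-*Xist* mice and open points for the 3 low-*Xist* mice. The open points are the lowest of the 8 in *Abcc3*, *Abcb1a*, *Abcb1b*, *Abcc4*, *Abca13*, and *Abcc1*, and the highest in *Abcc2*.

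Over the family, the 3 low-*Xist* mice lay below the other 5 in 8 members, or 20.5% (background: 6.85%), and above them in 2, or 5.13% (background: 7.43%). The 8 were *Abca2*, *Abca13*, *Abcb1a*, *Abcb1b*, *Abcc1*, *Abcc3*, *Abcc4*, and *Abcc10*, and the 2 were *Abcc2* and the translation factor *Abcf1*. A difference of at least 2-fold between high-*Xist* and low-*Xist* Maf flox/flox mice, without overlap, was found in 4 members (*Abcb1a*, *Abcb1b*, *Abcc3*, and *Abcc4*), or 10.3% (background: 2.14%). In *Abca2* and *Abcc10* the high-*Xist* level was only 1.15 and 1.22 times the low-*Xist* level in Maf flox/flox mice. The *Xist* level is not a group of the study, and the sexes of the mice are not given by the labels. Y-linked genes had 2293 to 2886 counts in the 3 low-*Xist* mice and 3 to 12 in the other 5, the pattern of male and female mice. Differences by *Xist* level therefore cannot be told apart from differences by sex. With 1 low-*Xist* mouse among the Maf conditional KO mice, the genotypes were not balanced for *Xist* level.

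The genotype difference was therefore also fitted with *Xist* (its log2 CPM) as a covariate. This fit called 6 members lower (background: 4.23%) and 1 higher (background: 2.59%). The lower ones were *Abcc4* (log2 fold change -0.64 ± 0.099, SE), *Abcd3*, *Abcg2*, *Abca4* (-0.53 ± 0.11), *Abca3*, and *Abcd4*, and the higher one was *Abcb1a* (0.89 ± 0.21). *Abcc4* had the smallest adjusted P of the family in it, 0.000949 by edgeR's quasi-likelihood test. In the 5 high-*Xist* mice alone, 4 members were called lower (background: 2.22%) and 0 higher (background: 1.53%). At an unadjusted P under 0.05, 8 members were lower there (background: 7.82%), namely *Abca3*, *Abca4*, *Abca17*, *Abcc2*, *Abcc4*, *Abcd3*, *Abcd4*, and *Abcg2*, and 3 were higher (background: 7.29%), namely *Abcb1a*, *Abcc3*, and *Abcg1*. The members called lower were *Abcc4* (-0.78 ± 0.10), *Abcc2* (-0.41 ± 0.087), *Abcd3* (-0.38 ± 0.081), and *Abca4* (-0.57 ± 0.13). Their adjusted P values in that fit of edgeR's quasi-likelihood test were 0.000489, 0.0139, 0.0149, and 0.0210. *Abcb1a* was at 0.51 ± 0.15 there (adjusted P = 0.0850 in edgeR's quasi-likelihood test), and *Abcg2* (-0.30 ± 0.083), *Abcd4* (-0.45 ± 0.13), and *Abca3* (-0.21 ± 0.080) were not called there either. *Abcd3*, the only member called with all mice and no covariate, was also called with the covariate and in the high-*Xist* mice. *Abcc4* and *Abca4* were likewise called both with the covariate and in the high-*Xist* mice.

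Counted within the high-*Xist* mice and again within the low-*Xist* mice, Maf conditional KO was below Maf flox/flox without overlap in 11 members, or 28.2% (background: 11.1%), and above it in 5, or 12.8% (background: 9.5%). The 11 were the 8 that were lower without overlap in all mice plus *Abca4*, *Abcc4*, and *Abcc10*. The 5 were *Abcb1a*, *Abcc3*, *Abcc5*, *Abcc9*, and *Abce1*. The 8 and *Abcc9* enter this count by construction, since genotypes that do not overlap over all mice cannot overlap within an *Xist* level. The low-*Xist* set holds 1 Maf conditional KO mouse and 2 controls, so that its part of this count rests on a single mouse. Whether the genotype difference of a member itself differed with *Xist* level was not tested.

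**Figure D5:**
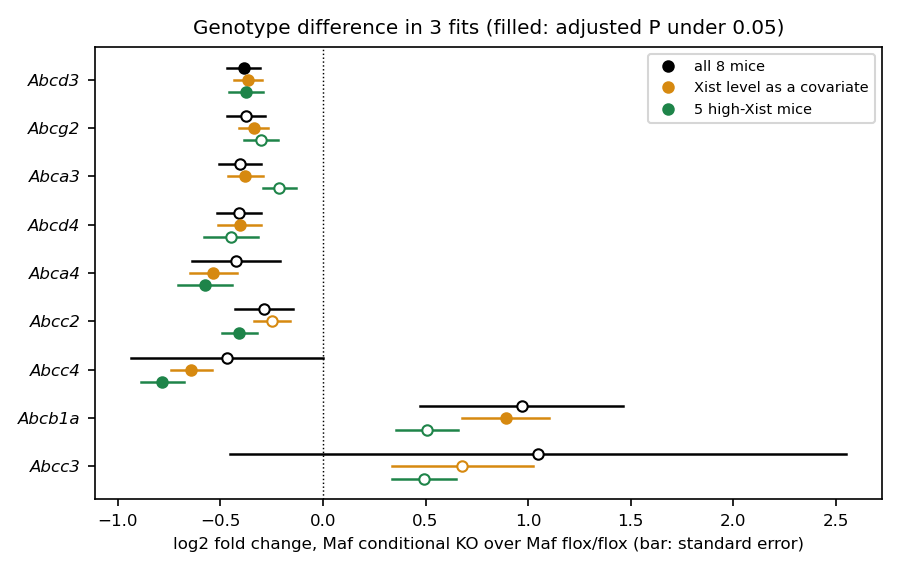
Log2 fold change with its SE for 9 members in the fit of all 8 mice (black), with the *Xist* level as a covariate (orange), and in the 5 high-*Xist* mice (green), where filled points have an adjusted P under 0.05. *Abcd3* is filled in all 3 fits, and *Abcc4* moves from -0.47 to -0.64 and -0.78 while its SE becomes smaller.

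The other efflux members differed less. *Abcc1* (Mrp1), a glutathione conjugate pump, had 35.8 to 60.5 CPM in Maf conditional KO and 34.0 to 52.3 CPM in Maf flox/flox mice, *Abcc5* 66.4 to 72.4 against 56.8 to 69.3 CPM, and *Abcc6*, whose loss causes ectopic calcification, 13.8 to 23.5 against 14.6 to 19.1 CPM. All of them overlapped between genotypes. Of the uptake carriers that work beside these pumps, 10 organic ion carrier genes were tested and 1 was called lower, the carnitine carrier *Slc22a5*, at 67.6 to 83.8 against 188.4 to 212.2 CPM (log2 fold change -1.47 ± 0.091, SE; adjusted P = 4.9e-06 in edgeR's quasi-likelihood test), and with the *Xist* covariate 2 were also called higher (background: 2.59%). Of 7 genes for proteins that anchor transporters at the apical membrane, 2 were called lower, *Ezr* (-0.50 ± 0.11) and *Slc9a3r1* (-0.46 ± 0.098). Of these 7, 3 were lower and 1 was higher at an unadjusted P under 0.05, 3 were called lower by DESeq2, and 3 were called lower and 1 (*Msn*) higher with the *Xist* covariate. Of 12 genes of the Nrf2 pathway, which is known to drive several *Abcc* genes, 2 were called lower, *Nqo1* (-0.80 ± 0.18) and *Hmox1* (-0.88 ± 0.17). Of these 12, 5 were lower at an unadjusted P under 0.05, 4 were called lower by DESeq2 and 5 with the *Xist* covariate, and 0 were higher in each. The background for genes called lower was 1.58% by edgeR's quasi-likelihood test, 7.44% at an unadjusted P under 0.05, 2.81% by DESeq2, and 4.23% with the *Xist* covariate. Of 9 tested genes of the xenobiotic receptors and their targets, 0 were called by edgeR's quasi-likelihood test, with 1 higher at an unadjusted P under 0.05, 0 by DESeq2, and 1 called higher with the *Xist* covariate, the xenobiotic receptor *Nr1i2* (log2 fold change 0.51 in that fit, adjusted P = 0.0454).

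*Abcc9*, the sulfonylurea receptor subunit of ATP-sensitive potassium channels in muscle and vessel walls, was the only member above the controls in every Maf conditional KO mouse. It had 25.6, 27.1, 25.5, and 29.4 CPM in Maf conditional KO mice and 24.5, 22.9, 22.0, and 20.6 CPM in Maf flox/flox mice. The groups were about 1 CPM apart at their edges, the log2 fold change was 0.26 ± 0.094 (SE), and the gene was not called (adjusted P = 0.235 in edgeR's quasi-likelihood test). Of the 3 listed potassium channel pores (*Kcnj1*, *Kcnj8*, and *Kcnj11*), 0 were called, 0 had an unadjusted P under 0.05, and 0 were called by DESeq2 or with the *Xist* covariate. *Abcc8*, its paralog, was near the detection floor at 0.11 to 1.37 CPM.

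c-Maf binds Maf recognition elements, and these were searched on both strands of the RefSeq promoter windows, which were found for 29 of the 39 members. The half-site TGCTGAC was present in at least 1 window of 5.28% of the 27025 genes. Among the 29 members it was present in 1, *Abcc9*, where it began 15 bases after the start. The *Abcc9* site is shown for that reason, with the half-site in capitals (GRCm38.p6, chr6:142702242-142702269, minus strand):
Abcc9: actcgccggcTGCTGACccgggaggaaa

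The full elements join this site to its own reverse complement either with 1 shared central base (TRE-type) or without (CRE-type). They were in 0 of the 29 members, and in 1 and 0 of the 27025 genes. *Abcc9* was not called, and the called member *Abcd3* had no match to the half-site in its windows. A match describes letters only, and sites farther from the start were not searched.

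Among the mitochondrial and lysosomal B members, *Abcb10*, an inner membrane transporter needed for heme synthesis, had 22.2, 28.8, 25.8, and 27.4 CPM in Maf conditional KO mice and 31.6, 29.8, 30.6, and 33.9 CPM in Maf flox/flox mice. The groups did not overlap, with a log2 fold change of -0.27 ± 0.10 (SE; adjusted P = 0.232 in edgeR's quasi-likelihood test; -0.17 ± 0.11 in the high-*Xist* mice), and 10.3% of its exonic bases also belonged to *Gm45890*. *Abcb8*, also mitochondrial, was at 48.1 to 54.2 against 49.8 to 55.0 CPM. *Abcb6* had 2.94 to 4.06 against 3.02 to 4.06 CPM, with 55.2% of its exonic bases shared with *Gm29253*, so that its level may be underestimated. Of 13 genes for iron-sulfur and heme synthesis, 0 were called, 0 had an unadjusted P under 0.05 in edgeR's quasi-likelihood test, and DESeq2 called 0. With the *Xist* covariate 1 was called lower, *Cpox*, an enzyme of heme synthesis (log2 fold change -0.36, adjusted P = 0.0162 in edgeR's quasi-likelihood test).

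In the ribosomal subfamilies E and F the differences were small. *Abcf3*, which takes part in translational control, had 33.6, 34.6, 37.1, and 36.8 CPM in Maf conditional KO mice and 37.8, 41.8, 39.02, and 43.4 CPM in Maf flox/flox mice. The groups did not overlap, but they were less than 1 CPM apart at their edges (log2 fold change -0.19 ± 0.082, SE; adjusted P = 0.329 in edgeR's quasi-likelihood test). *Abce1* was at 52.7 to 68.8 against 48.1 to 54.8 CPM, *Abcf1* at 62.8 to 72.0 against 61.3 to 83.2 CPM, and *Abcf2* at 33.3 to 42.3 against 39.05 to 43.3 CPM, all overlapping. Of 9 listed genes that act with them in translation, 0 were called, 0 had an unadjusted P under 0.05 in edgeR's quasi-likelihood test, and 0 were called by DESeq2 or with the *Xist* covariate. The ABC genes outside the name pattern were the chloride channel *Cftr* and the peptide transporters *Tap1* and *Tap2*. *Cftr* had 7.73 to 11.4 against 6.13 to 7.87 CPM (unadjusted P = 0.00759, adjusted P = 0.152 in edgeR's quasi-likelihood test), *Tap1* 9.16 to 15.6 against 12.5 to 16.2 CPM, and *Tap2* 12.3 to 20.5 against 13.6 to 16.9 CPM.

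Cell type markers moved with the genotype in part. Of 10 markers of the proximal tubule segments S1 and S2, where *Abcg2*, *Abcc2*, and *Abcc4* are known to be expressed, 7 were called lower (background: 1.58%), and 7 with the *Xist* covariate (background: 4.23%). The summed level of the 10 markers was 11388 to 15280 CPM in Maf conditional KO and 18179 to 20482 CPM in Maf flox/flox mice. Of 5 endothelial markers, 1 (*Kdr*) was called lower (background: 1.58%), also with the *Xist* covariate, with sums of 348.3 to 355.3 against 370.2 to 422.8 CPM, and the sums of 5 macrophage markers were 87.7 to 92.8 against 78.6 to 84.4 CPM with 0 called (1 higher at an unadjusted P under 0.05, 0 by DESeq2 and with the *Xist* covariate). The mural cell and fibroblast markers, among which *Abcc9* is known to be expressed, summed to 318.7 to 397.2 against 252.6 to 427.8 CPM, with 0 of 6 called (0 at an unadjusted P under 0.05, 0 by DESeq2 and with the *Xist* covariate). Markers of the proximal tubule segment S3 gave overlapping sums of 1249 to 4041 against 958.0 to 2578 CPM. Of the 5, 0 were called, with *Slc5a1* higher at an unadjusted P under 0.05 in edgeR's quasi-likelihood test, 0 by DESeq2, and *Atp11a* called higher with the *Xist* covariate (background: 2.59%). In the remaining lists 0 markers were called. Among these the distal marker *Pvalb* was lower at an unadjusted P under 0.05 and by DESeq2, the erythroid *Hba-a2* was lower at an unadjusted P under 0.05, and of the hepatocyte markers *Alb* was lower at an unadjusted P under 0.05, by DESeq2, and with the *Xist* covariate, and *Serpina1a* was higher at an unadjusted P under 0.05. The thick limb, collecting duct, podocyte, and lymphocyte lists had 0 in each of these fits. No tested marker was at 0 in all mice. Their part in the differences of the members was not tested.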

How the data were processed

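The authors deposited raw counts of reads per gene name, made from 2 × 36 base paired-end reads of rRNA-depleted total RNA. Per the file headers, featureCounts 2.0.1 counted reads on exons of the Ensembl GRCm38 annotation (release 102), each read of a pair separately, without strand and without reads on exons shared by genes, while the submitters' processing notes name Subread 2.0.2 and edgeR 3.36.0. The aligner is not given in the sources used here, and the study's own route (CLC Genomics Workbench, quantile method) was not repeated.

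The 39 members and all gene lists were chosen with earlier results of these data known. Genes passing filterByExpr (20149 of 55367) were compared between 4 Maf conditional KO and 4 Maf flox/flox mice by the quasi-likelihood test of edgeR (robust fit), TMM scaling (factors 0.857 to 1.11), and no covariates (R 4.3.3, edgeR 4.0.16, limma 3.58.1), and Benjamini-Hochberg adjustment over all tested genes. Each SE was derived from the size of the log2 fold change over the root of its F value. Totals of 16649129 to 22990257 counts and a biological coefficient of variation of 0.203 set the precision. The labels number the replicates without naming animals, so P values measure the spread between these samples. Replicate libraries of a genotype differed by more than sampling noise.

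Named in the text were *Maf*, called members, the highest member per subfamily, the 10 highest of all, members with an unadjusted P under 0.05, the drug efflux members, those at the edge of the count rule, *Cftr*, *Tap1*, *Tap2*, *Xist*, and called list genes. Others (*Abca4* and the remaining members) were named after their values were seen, and called proximal tubule markers are given as a sum. Alternatives were RLE, upper-quartile, and quantile scaling, edgeR's exact test joined to a looser filter (a summed count of 5 or more), DESeq2 1.42.0, other filters and thresholds, a replicate block, *Xist* as a covariate, high-*Xist* mice only, no mitochondrial or ribosomal RNA genes, and each mouse left out. Values of 2 members are not reported here, although counts over the family include them. Scripts were tested on simulated counts. Gene overlaps came from the deposited exon coordinates, and promoter windows from RefSeq (GRCm38.p6). Figures used Python 3.11.15 and matplotlib 3.10.9.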

Additional observations from a re-analysis of the deposited data

Results flagged for a closer look

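Within genotypes of 4 mice, 52 sets of values (*Maf* and the named ABC genes in each genotype) were searched for a mouse far from the others by Dixon's criterion at 95%, which chance alone meets in about 5% of sets, here 2.6, and 3 were found. *Abcb1b* was at 6.36 CPM in Maf conditional KO mouse 1, whereas its genotype otherwise gave 18.2 to 20.02 CPM. *Abcc3* was at 5.44 CPM in the same mouse, against 170.5 to 194.7 CPM in its genotype otherwise. This is the only Maf conditional KO mouse with low *Xist*, and it also had the highest mitochondrial share (32.3%), so that these cannot be told apart within this genotype. *Abcd2*, which was just under the count rule, was at 1.52 CPM in Maf flox/flox mouse 3 (30 counts), and the remaining controls gave 0.0903 to 0.235 CPM.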

How the results depend on the processing

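The number of members called lower was 1 and was the same with RLE factors, with at least 10 counts in every mouse, without mitochondrial and ribosomal RNA genes, and without the count rule for members. It was 0 with upper-quartile factors, quantile normalization with limma, edgeR's exact test joined to a looser filter (a summed count of 5 or more), an adjusted P under 0.01, and a required log2 fold change of 1 or more in size. It was 3 with no filter on low counts, 4 with DESeq2, 6 with the *Xist* covariate, and 4 in the high-*Xist* mice. Over all tested genes, 266 and 267 of 20149 were called lower with upper-quartile factors and quantile normalization, and 378 of 31280 with the exact test. With no filter on low counts it was 409 of 37792 genes, with DESeq2 2.81%, with the *Xist* covariate 4.23%, and in the high-*Xist* mice 2.22%. Leaving out each mouse in turn gave 0 to 3, with 3 (*Abcc2*, *Abcd3*, and *Abcg2*) without Maf conditional KO mouse 1 and 0 without any other mouse. Over all tested genes, 310 of 20561 were called lower without Maf conditional KO mouse 1, and 188 to 270 without each other mouse. The number of members called higher was 0 except with the *Xist* covariate, which gave 1 (background: 2.59%). *Maf* stayed lower in all alternatives, but its adjusted P passed 0.05 in the high-*Xist* mice (log2 fold change -3.87, adjusted P = 0.108 in edgeR's quasi-likelihood test). *Abcb1b* reversed from 0.31 to -0.019 in the high-*Xist* mice and was called in neither. Fewer mice enter the leave-one-out and high-*Xist* fits, and the cause of the other changes was not tested.

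With the replicate number as a block, 0 members were called, over all genes 111 were lower and 18 higher, and *Maf* was at -4.28 (adjusted P = 0.0516 in edgeR's quasi-likelihood test). Deviations of same-numbered mice correlated at -0.37, 0.15, -0.11, and -0.33, and not every mouse correlated best with its own number, so the numbers were not taken to pair the mice. Depth limits *Abcb4*, *Abcc8*, and *Abcg3*, whose levels were at or under about 1 CPM in most mice.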
